A study of Mus musculus with 8 samples.

Results

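The proteasome subunit genes were taken as the rows of the deposited exon count and FPKM tables whose symbol is Psm followed by a letter from a to g and a number, leaving out the immunoproteasome genes Psmb8, Psmb9 and Psmb10. This gave 46 genes, each with 1 row, of 78298 rows in the tables. Poly(A) RNA of NIH3T3, a mouse embryonic fibroblast line labelled WT, was sequenced in 4 Mic-628 libraries and 4 vehicle libraries, with 1 of each in every labelled batch. All cells were cultured in DMEM with serum and were treated for 1 day, with Mic-628 in the first group and with vehicle in the second. The series title describes Mic-628 as an inducer of Period1, a clock gene, so the comparison asks whether the proteasome genes differed after a day of treatment. A single cell line limits the model. The labels do not describe separate cultures within a group, so every p-value measures spread among the 8 libraries alone, and that spread may be technical.

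The proteasome is the main protease for ubiquitin-tagged proteins in the cytosol and nucleus. Its 20S core is a barrel of alpha rings outside and beta rings inside, and some of the beta subunits carry the active sites. The 19S cap binds ubiquitin chains, removes them and unfolds the protein, with a base that holds a ring of ATPases and a lid that holds the deubiquitinase. Dedicated chaperones assemble core and cap, alternative activators can replace the cap, and an interferon-induced set of catalytic subunits forms the immunoproteasome. When proteasome activity falls, the transcription factor NFE2L1 raises the subunit genes together through antioxidant response elements in their promoters. Proteasomes also remove the clock repressors PER and CRY once these carry ubiquitin.

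Since NFE2L1 is the known shared regulator, the promoters of the family were searched for the core of its element, TGACNNNGC, and for CCAAT, the NF-Y box, on both strands. RefSeq promoters came from build GRCm38.p6 and ran from 250 bases before the transcript start to 50 after it. Any promoter of Psma8 or Psmg2 was left out of the search because of its location in the genome. The set of all promoters used for comparison was not filtered in this way. With these left out, matching by symbol gave promoters for 38 of the 46 genes, with 41 promoters in all. The TGACNNNGC core was present in 6 of these 41 promoters (14.6%), against 12.4% of all 32851 promoters in the table, and CCAAT in 13 (31.7%), against 37.4%. The 6 promoters belonged to Psmb5, Psmb6, Psmc6, Psmd9, Psmd12 and Psme4, and 0 of the 41 promoters held both motifs. The promoters of 2 catalytic core subunits and of the ATPase gene with the smallest p in the family are shown because each holds the core, which is in capitals. Counted from the transcript start, it lay at -47 to -39 in Psmb5 and at -9 to -1 in Psmb6. In Psmc6 the match was on the opposite strand, at -227 to -219, so its capitals read as the reverse complement.
Psmb5, chr14:54617946-54618245, minus strand: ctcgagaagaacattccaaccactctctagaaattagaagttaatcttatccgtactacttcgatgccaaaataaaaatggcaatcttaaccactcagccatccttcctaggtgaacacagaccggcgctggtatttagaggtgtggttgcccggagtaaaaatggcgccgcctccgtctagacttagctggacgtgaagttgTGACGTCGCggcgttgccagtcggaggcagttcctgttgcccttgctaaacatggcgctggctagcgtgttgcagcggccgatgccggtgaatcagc
Psmb6, chr11:70525107-70525406, plus strand: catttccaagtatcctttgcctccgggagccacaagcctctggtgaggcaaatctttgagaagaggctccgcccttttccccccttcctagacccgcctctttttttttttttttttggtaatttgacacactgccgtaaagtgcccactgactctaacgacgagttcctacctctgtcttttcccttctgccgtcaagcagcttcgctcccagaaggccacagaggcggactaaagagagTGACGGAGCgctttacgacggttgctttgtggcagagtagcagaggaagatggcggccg
Psmc6, chr14:45329574-45329873, plus strand: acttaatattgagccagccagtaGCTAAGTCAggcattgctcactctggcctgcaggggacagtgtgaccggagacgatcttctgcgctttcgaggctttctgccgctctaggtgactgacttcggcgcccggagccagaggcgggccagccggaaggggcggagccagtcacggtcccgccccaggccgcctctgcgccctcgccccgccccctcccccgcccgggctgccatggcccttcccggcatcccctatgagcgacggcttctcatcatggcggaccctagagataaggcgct
A match of these letters is a description of the sequence and not evidence of binding.

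As a check of the treatment label, Per1 had 24.1, 26.1, 23.7 and 25.7 FPKM in Mic-628 replicates 1 to 4, against 4.13, 4.10, 4.43 and 4.58 FPKM in vehicle replicates 1 to 4. It rose 5.79-fold with a 95% interval of 5.42 to 6.18 (edgeR adjusted p = 1.16e-22), and the groups did not overlap. FPKM, as deposited, are exon reads scaled by exon length and library total. Counts on listed transcripts were between 18106347 and 23158317 reads per library. All 8 fibroblast markers checked, among them Vim and Col1a2, had a mean FPKM of at least 1, with summed levels of 4423 to 4539 FPKM in Mic-628 libraries and 5072 to 5250 FPKM in vehicle libraries. Of these 8 markers 0 were called higher and 4 lower, against 2.13% and 2.25% of all 17128 tested rows. The 4 were Vim, Col1a2, Col3a1 and Fn1, with log2 fold changes of -0.22, -0.14, -0.57 and -0.28. Of all 8 markers, 2 had a log2 fold change above 0. The part of these markers in the proteasome gene results was not tested. Markers of other cell types reached a mean of 1 FPKM for 1 of 4 epithelial, 2 of 4 macrophage and blood, 0 of 3 endothelial and 0 of 3 muscle genes. The macrophage and blood list summed to 8.81 to 9.58 FPKM in Mic-628 libraries and 7.99 to 8.62 FPKM in vehicle libraries, with 1 gene at 0 throughout. The epithelial list summed to 1.36 to 2.09 FPKM in Mic-628 libraries and 1.38 to 1.63 FPKM in vehicle libraries. The endothelial list reached at most 0.121 FPKM in Mic-628 libraries and 0.163 FPKM in vehicle libraries, and the muscle list, with 2 genes at 0, at most 0.355 and 0.243 FPKM in those groups. In bulk RNA, fewer cells of a type and less RNA per cell cannot be told apart.

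Almost the whole family was expressed. Of the 46 genes, 41 had a mean of at least 10 FPKM over the 8 libraries, and 7 had a mean of at least 100 FPKM, a level reached by 605 rows of the table. These 7 were the core genes Psmb6 (152.6 FPKM), Psma7 (149.0), Psmb2 (135.9), Psmb1 (105.0) and Psmb3 (102.7) and the base genes Psmd2 (123.4) and Psmd4 (122.7). The tissue-restricted members were at the other end. Psma8, the testis form of an alpha subunit, had a count of 0 in all 8 libraries, which allows up to 3 counts in each, by counting error alone. Psmb11, the thymus form of the catalytic Psmb5 subunit, had at most 2 counts in any library. Psmb11 lies beside Psmb5 on chromosome 14 (mm39; Psmb5 at 54851576 to 54855479 on the minus strand, Psmb11 at 54862767 to 54867013 on the plus strand), and Psmb5 averaged 45.2 FPKM. Summed over all members, the family took 0.438% to 0.453% of listed counts in Mic-628 libraries and 0.429% to 0.444% in vehicle libraries.

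**Figure D1:**
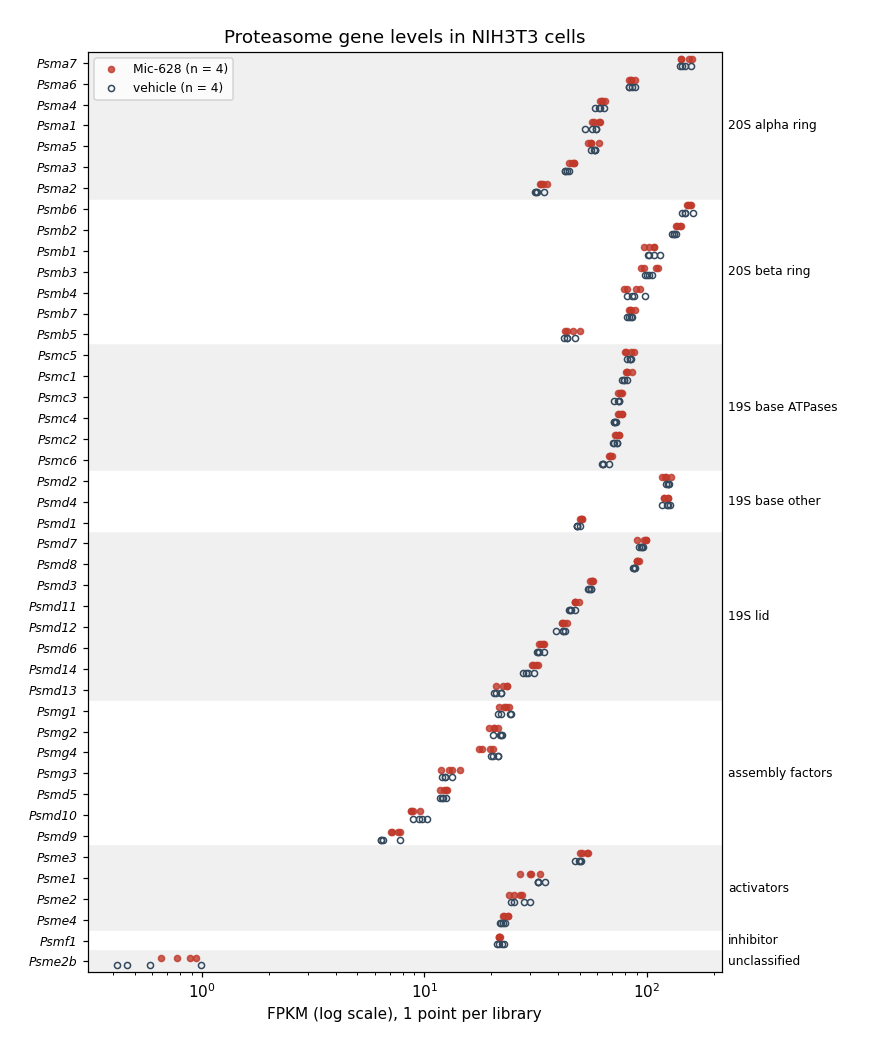
FPKM of each tested proteasome gene on a log axis, 1 point per library, with Mic-628 libraries above vehicle libraries in each row and genes grouped by role. The 2 groups lie close together for nearly every gene, while genes differ from each other, between 0.71 FPKM on average for Psme2b and 152.6 FPKM for Psmb6.

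Subunits of 1 particle, which are built into it in fixed numbers, did not have equal FPKM levels. Per length, the 14 tested 20S genes spanned 4.58-fold, between Psma2 (33.3 FPKM) and Psmb6. The 17 genes of the 19S base and lid spanned 5.60-fold, between Psmd13 (22.0 FPKM) and Psmd2. These spans depend on the exon length of the listed row, which was 2896 bases for Psma2 and 787 bases for Psmb6. Other lengths were not tested. The 6 ATPase genes lay closer together, with means between 66.4 FPKM for Psmc6 and 83.6 FPKM for Psmc5, a span of 1.26-fold. The summed 20S level was 1.03 ± 0.015 times the summed 19S level in Mic-628 libraries and 1.04 ± 0.028 times in vehicle libraries (SD, n = 4 each). Between replicates the genes varied little: the median coefficient of variation over the 44 tested members was 3.11% in Mic-628 libraries and 3.40% in vehicle libraries.

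At an adjusted p under 0.05, no proteasome subunit gene was called changed after 1 day of Mic-628: 0 of 44 tested members were higher and 0 were lower. The same edgeR quasi-likelihood fit called 4.37% of all 17128 tested rows, 2.13% higher and 2.25% lower. Before adjustment, 8 of the 44 members (18.2%) had a p under 0.05, against 17.0% of all tested rows, and DESeq2 also called 0. These 8 were Psma3, Psmc4, Psmc6, Psmd9, Psmd11, Psmd14 and Psme3, with positive log2 fold changes, and Psme1, with a negative one. The smallest adjusted p in the family was 0.136. The 44 are the members that passed the low-count filter, and Psma8 and Psmb11 did not pass it. Without vehicle replicate 1, the count of higher members was 3 (Psmc6, Psmd14 and Psmd9), and without replicate 1 of both groups it was 2 (Psmc6 and Psmd9). Those fits called 4.64% and 4.26% of all rows they tested.

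The estimates were narrow enough to bound the differences. The standard error of the log2 fold change had a median of 0.037 over the tested members, against 0.067 over all tested rows. For 41 of 44 members the 95% interval of the fold change lay inside 1.2-fold in either direction, which held for 56.5% of all tested rows, and for 27 members it lay inside 1.1-fold, which held for 23.5%. For 43 members it lay inside 1.5-fold, against 83.3% of all tested rows. Each interval stands for its gene alone. The comparison with all tested rows was not matched for expression level, and 41 of the 46 members had a mean of at least 10 FPKM. The weakly expressed Psme2b (0.71 FPKM) had an SE of 0.287. Whether the members differed less than other rows of the same level was not tested. All 31 tested 20S, base and lid genes were among the 41, with intervals that reached from 0.909-fold for Psmb4, which a row on the opposite strand overlaps at 32.1% of its FPKM, to 1.14-fold for Psmd14. The 3 members whose intervals reached past 1.2-fold were the assembly factors Psmg4 and Psmd9 and the weakly expressed Psme2b.

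**Figure D2:**
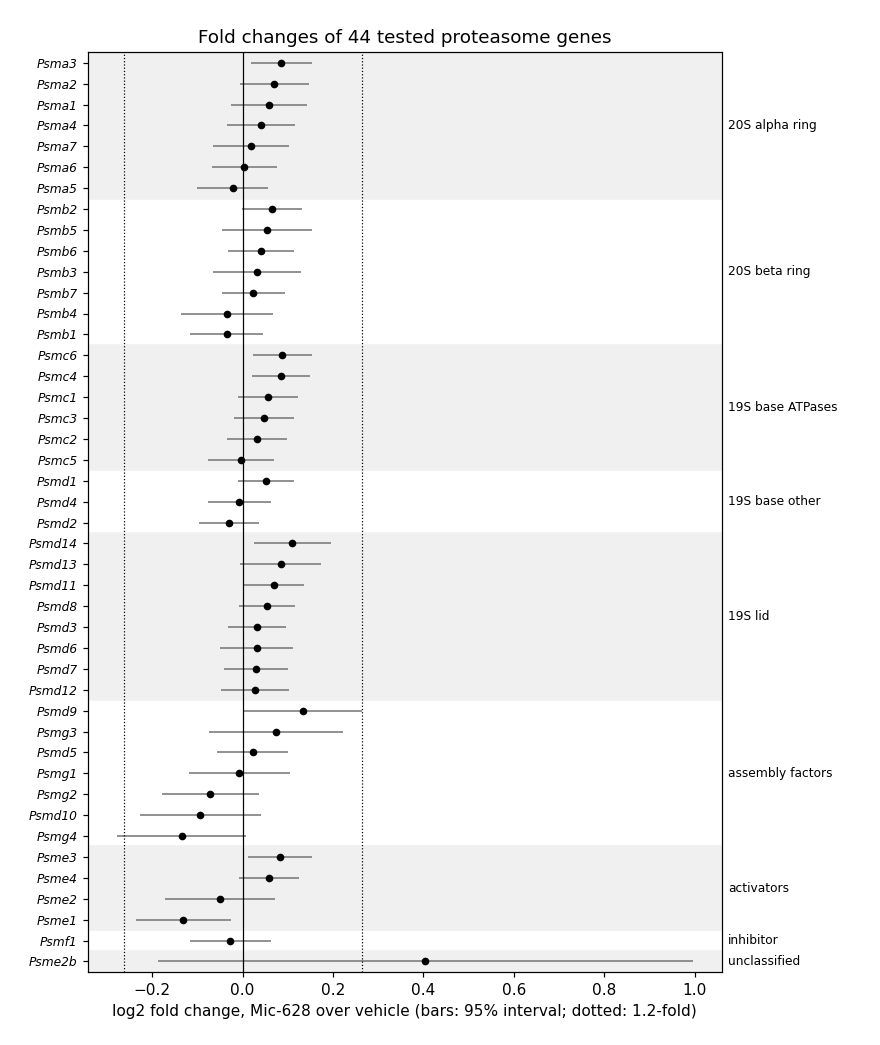
Log2 fold change of Mic-628 over vehicle for each tested proteasome gene, with 95% intervals from edgeR's quasi-likelihood fit and dotted lines at 1.2-fold. Of the 44 intervals, 41 lie between the dotted lines, and the interval of Psme2b is the widest.

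Most of the estimates lay slightly above 0. The log2 fold change was above 0 for 31 of 44 members (70.5%), against 48.4% of all tested rows, and its median was 0.032 over the members and -0.0040 over all rows. The number above 0 depended on the libraries and ranged from 25 to 37 over 23 alternatives. Summed over subunits, the 20S level was 1183, 1181, 1244 and 1246 FPKM in Mic-628 replicates 1 to 4, against 1254, 1180, 1165 and 1173 FPKM in vehicle replicates 1 to 4. The 2 groups overlapped, with vehicle replicate 1 above every Mic-628 library. The 19S level was 1161, 1162, 1189 and 1198 FPKM in Mic-628 replicates 1 to 4, against 1166, 1134, 1144 and 1156 FPKM in vehicle replicates 1 to 4. Here too vehicle replicate 1 was the highest of its group and above Mic-628 replicates 1 and 2. The difference of the group means was 1.69% for the 20S sum and 2.40% for the 19S sum. Over the 44 members, vehicle replicate 1 was the highest vehicle library in 27, while Mic-628 replicates 3 and 4 were the highest Mic-628 library in 18 and 19. Whether this ranking is particular to the proteasome genes was not tested. Between vehicle libraries over the whole table, chi-square per row was 3.03 to 5.80 for pairs with replicate 1. It was 1.74 to 3.26 for the other vehicle pairs.

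**Figure D3:**
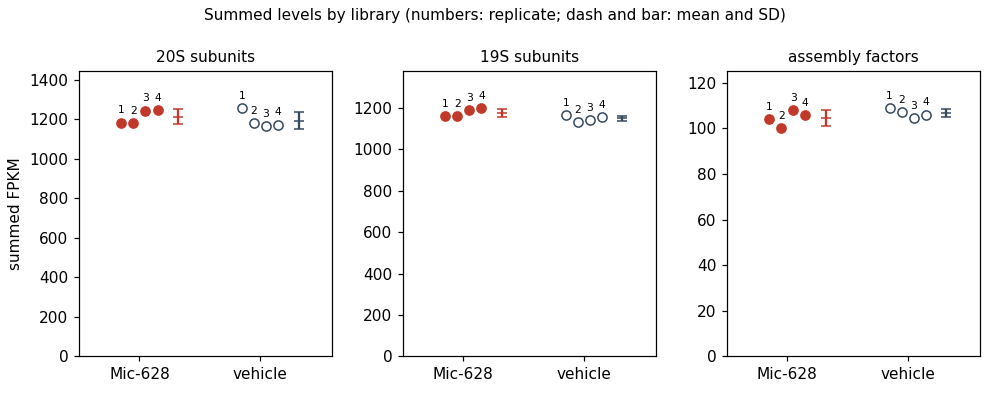
Summed FPKM of the 20S subunit genes, the 19S subunit genes and the assembly factors in each library, Mic-628 left of vehicle, with the mean and SD of 4 libraries. Vehicle replicate 1 is the highest vehicle library in all 3 panels, and the groups overlap in each.

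Among the 7 tested alpha ring genes, whose products gate the core, 0 were called, and log2 fold changes ran between -0.02 for Psma5 and 0.09 for Psma3 with a median of 0.041. Psma3 (chromosome 12, 71021395 to 71043121, plus strand) had 47.0, 44.7, 45.9 and 47.2 FPKM in Mic-628 replicates 1 to 4, against 44.8, 43.8, 42.7 and 42.9 FPKM in vehicle replicates 1 to 4. The groups overlapped only between Mic-628 replicate 2 and vehicle replicate 1, and the Mic-628 library was the higher in 4 of 4 batches. Its fold change was 1.06 with a 95% interval of 1.013 to 1.11 (edgeR adjusted p = 0.157). A row on the opposite strand, 3110056K07Rik, overlaps Psma3 at 24.1% of its FPKM, and reads of the pair may not be told apart. Psma7, the most abundant alpha gene, averaged 149.9 ± 8.85 FPKM in Mic-628 libraries and 148.1 ± 7.42 FPKM in vehicle libraries (SD, n = 4 each). Psma2, the lowest of the tested ones in FPKM, averaged 34.1 ± 1.13 FPKM in Mic-628 libraries and 32.5 ± 1.44 FPKM in vehicle libraries (SD, n = 4 each).

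Of the 7 tested beta ring genes 0 were called, and log2 fold changes lay between -0.04 for Psmb1 and 0.06 for Psmb2, a structural subunit of the ring. Psmb2 (chromosome 4, 126571423 to 126603507, plus strand) had 140.5, 135.9, 142.2 and 137.3 FPKM in Mic-628 replicates 1 to 4, against 132.9, 129.8, 133.2 and 135.7 FPKM in vehicle replicates 1 to 4. Its groups did not overlap, though Mic-628 replicate 2 and vehicle replicate 4 were nearly level, and it was 1.05-fold with an interval of 0.999 to 1.09 (edgeR adjusted p = 0.312). Groups that did not overlap were found for 4 of 44 members (9.09%), against 10.7% of all tested rows. The other 3 were Psmc4, Psmd1 and Psmd8, and all 4 were higher in Mic-628 libraries. Psmb3, a structural subunit, had 94.3, 97.4, 110.5 and 112.9 FPKM in Mic-628 replicates 1 to 4, against 105.8, 97.95, 100.2 and 102.7 FPKM in vehicle replicates 1 to 4. Its vehicle libraries all lay between the lowest and highest Mic-628 library.

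The 3 catalytic beta genes showed no called difference, and each was far more abundant than its immunoproteasome counterpart. Psmb6, which carries the caspase-like site, averaged 154.7 ± 2.89 FPKM in Mic-628 libraries and 150.5 ± 7.47 FPKM in vehicle libraries (SD, n = 4 each). Its counterpart Psmb9 averaged 1.28 ± 0.21 FPKM in Mic-628 libraries and 1.24 ± 0.27 FPKM in vehicle libraries (SD, n = 4 each). Psmb7, which carries the trypsin-like site, averaged 85.2 ± 2.14 FPKM in Mic-628 libraries and 83.8 ± 2.20 FPKM in vehicle libraries (SD, n = 4 each). Its counterpart Psmb10 had 4.56, 4.60, 4.76 and 4.87 FPKM in Mic-628 replicates 1 to 4, against 5.20, 4.76, 5.13 and 5.39 FPKM in vehicle replicates 1 to 4. Psmb10 was lower in Mic-628 in 4 of 4 batches, but the difference was not called (log2 fold change -0.12, SE 0.085, edgeR adjusted p = 0.507). Psmb5, which carries the chymotrypsin-like site, averaged 46.0 ± 3.29 FPKM in Mic-628 libraries and 44.4 ± 2.20 FPKM in vehicle libraries (SD, n = 4 each). For its counterpart Psmb8 at most 1 count was found in any Mic-628 library and at most 4.5 counts in any vehicle library, too few for the main fit. Over the 8 libraries, the mean FPKM of Psmb6 was 121.0 times that of Psmb9, and the mean of Psmb7 was 17.2 times that of Psmb10. Nek6 overlaps Psmb7 on the opposite strand at 8.43% of its FPKM, and Mir686 overlaps Psmb5 on the same strand at 13.5%.

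**Figure D4:**
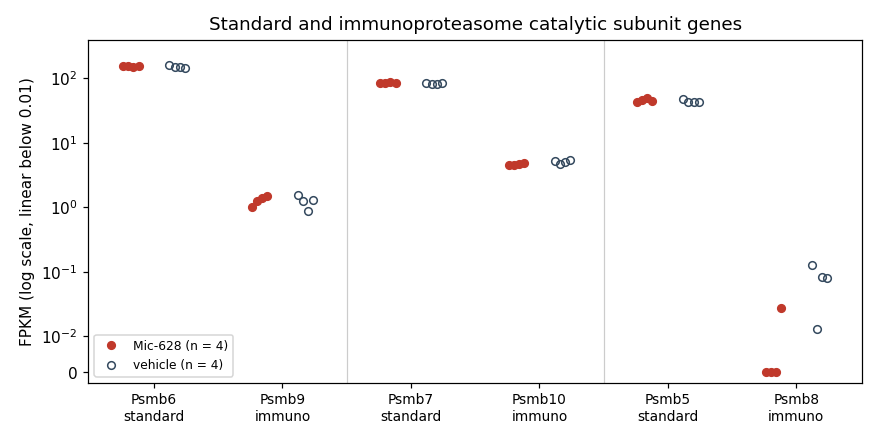
FPKM of the 3 standard catalytic subunit genes and their immunoproteasome counterparts in each library, Mic-628 left of vehicle, on a log axis that is linear below 0.01. Each standard gene lies above its counterpart in every library, and Psmb8 is at 0 in 3 Mic-628 libraries.

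The 6 ATPase genes of the base, whose products unfold the substrate, gave log2 fold changes between -0.0036 for Psmc5 and 0.09 for Psmc6, and 0 were called. Psmc6 (chromosome 14, 45567245 to 45587162, plus strand), which had the smallest p of the family, had 68.1, 68.4, 67.3 and 69.8 FPKM in Mic-628 replicates 1 to 4. Its vehicle replicates 1 to 4 had 67.4, 63.7, 63.6 and 62.8 FPKM. Vehicle replicate 1 lay among the Mic-628 libraries, and the other 3 vehicle libraries lay below all of them. The fold change was 1.06 with an interval of 1.015 to 1.11 (log2 fold change 0.09, SE 0.032, edgeR adjusted p = 0.136). Without vehicle replicate 1 the log2 fold change was 0.11 and the adjusted p 0.0344. Psmc4 (chromosome 7, 27741132 to 27749526, minus strand) averaged 75.9 ± 1.49 FPKM in Mic-628 libraries and 71.6 ± 0.69 FPKM in vehicle libraries (SD, n = 4 each; log2 fold change 0.08, edgeR adjusted p = 0.144). The most abundant ATPase gene, Psmc5, averaged 83.4 ± 3.56 FPKM in Mic-628 libraries and 83.7 ± 1.72 FPKM in vehicle libraries (SD, n = 4 each).

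The other base genes encode the scaffolds Psmd1 and Psmd2 and the ubiquitin receptor Psmd4, and 0 of 3 were called. Psmd1 (chromosome 1, 85992341 to 86066873, plus strand) had 51.2, 50.8, 51.1 and 50.04 FPKM in Mic-628 replicates 1 to 4, against 48.7, 48.6, 48.6 and 49.96 FPKM in vehicle replicates 1 to 4. The groups did not overlap, but replicate 4 was nearly level between them. It was 1.04-fold with an interval of 0.993 to 1.08 (edgeR adjusted p = 0.402), and a row on the same strand, Gm21972, overlaps it at 51.4% of its FPKM. Psmd2 averaged 122.0 ± 4.75 FPKM in Mic-628 libraries and 124.7 ± 1.71 FPKM in vehicle libraries, and Psmd4 averaged 122.4 ± 2.72 FPKM in Mic-628 libraries and 123.0 ± 4.38 FPKM in vehicle libraries (SD, n = 4 each). Psmd4 is overlapped on the opposite strand by 3 rows at 21.3%, 21.7% and 28.9% of its FPKM.

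All 8 lid genes had log2 fold changes above 0, between 0.03 for Psmd12 and 0.11 for Psmd14, and 0 were called. Psmd14 encodes the deubiquitinase that removes chains as the substrate enters (chromosome 2, 61542038 to 61630720, plus strand). It had 31.9, 32.5, 30.6 and 30.8 FPKM in Mic-628 replicates 1 to 4, against 31.1, 28.7, 29.2 and 27.7 FPKM in vehicle replicates 1 to 4. Again vehicle replicate 1 lay among the Mic-628 libraries and the other vehicle libraries below them. The fold change was 1.08 with an interval of 1.02 to 1.14 (SE of the log2 value 0.041, edgeR adjusted p = 0.145), and without vehicle replicate 1 the log2 fold change was 0.14 with an adjusted p of 0.0402. Psmd7, the most abundant lid gene and the partner of Psmd14 in the lid, averaged 96.5 ± 3.97 FPKM in Mic-628 libraries and 94.4 ± 1.92 FPKM in vehicle libraries (SD, n = 4 each). Psmd8 separated the groups at 90.8 ± 0.85 FPKM in Mic-628 libraries and 87.5 ± 0.67 FPKM in vehicle libraries (SD, n = 4 each), a fold change of 1.04 (edgeR adjusted p = 0.373). The least abundant lid gene, Psmd13, averaged 22.6 ± 1.22 FPKM in Mic-628 libraries and 21.4 ± 0.77 FPKM in vehicle libraries (SD, n = 4 each), and Sirt3 overlaps it on the opposite strand at 20.6% of its FPKM.

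The assembly factors lay between 7.09 FPKM for Psmd9 and 23.1 FPKM for Psmg1, and had the widest spread of fold changes. Every tested core and cap gene was more abundant than Psmg1, except the lid gene Psmd13 (22.0 FPKM). Of 7 tested, 0 were called, and 3 had log2 fold changes above 0 and 4 below. Psmg4, a chaperone of the alpha ring, had the lowest value of the family, -0.14 (chromosome 13, 34346947 to 34362156, plus strand). It had 20.4, 17.7, 19.7 and 18.2 FPKM in Mic-628 replicates 1 to 4, against 19.97, 20.4, 21.5 and 21.3 FPKM in vehicle replicates 1 to 4. Mic-628 replicates 2, 3 and 4 lay below every vehicle library, and replicate 1 lay among them. The fold change was 0.911 with an interval of 0.824 to 1.006 (edgeR adjusted p = 0.330). Psmd9, a chaperone of the base (chromosome 5, 123366253 to 123388194, plus strand), went the other way, with 7.09, 7.18, 7.78 and 7.60 FPKM in Mic-628 replicates 1 to 4. Its vehicle replicates 1 to 4 had 7.80, 6.36, 6.39 and 6.54 FPKM, so that vehicle replicate 1 was the highest of all 8 libraries. In the full set it was 0.13 on the log2 scale (SE 0.064, edgeR adjusted p = 0.292), and without vehicle replicate 1 the log2 value was 0.21 with an adjusted p of 0.0434. Without replicate 3 of both groups it was 0.08 (edgeR adjusted p = 0.703). The core chaperone genes Psmg1, Psmg2 and Psmg3 and the base chaperone genes Psmd5 and Psmd10 had adjusted p values between 0.502 and 0.970, and Gm26938 overlaps Psmg3 on the same strand at 45.2% of its FPKM.

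The activator genes gave mixed signs. Psme1 encodes the alpha subunit of the interferon-induced PA28 cap, and its partner Psme2 the beta subunit. The genes are neighbours on chromosome 14 (Psme1 at 55815817 to 55818985 on the plus strand, Psme2 at 55824898 to 55828544 on the minus strand). Psme1 had 27.0, 29.9, 33.2 and 30.1 FPKM in Mic-628 replicates 1 to 4, against 34.7, 32.5, 32.4 and 32.4 FPKM in vehicle replicates 1 to 4. Of the Mic-628 libraries, only replicate 3 lay within the vehicle range. The fold change was 0.913 with an interval of 0.849 to 0.982 (log2 fold change -0.13, SE 0.051, edgeR adjusted p = 0.164), and the row of Emc9 overlaps Psme1 on the opposite strand at 11.1% of its FPKM. Without replicate 1 of both groups the log2 fold change of Psme1 was -0.06 (edgeR adjusted p = 0.559), and without Mic-628 replicate 1 alone it was -0.09 (0.420). Psme2 averaged 25.9 ± 1.55 FPKM in Mic-628 libraries and 26.9 ± 2.40 FPKM in vehicle libraries (SD, n = 4 each; log2 fold change -0.05, edgeR adjusted p = 0.729). Psme3, the nuclear homolog, was the most abundant activator gene at 52.4 ± 2.01 FPKM in Mic-628 libraries and 49.4 ± 1.44 FPKM in vehicle libraries (SD, n = 4 each; log2 fold change 0.08, edgeR adjusted p = 0.207). Psme4, which encodes the single-chain activator PA200, was the least abundant at 23.3 ± 0.63 FPKM in Mic-628 libraries and 22.3 ± 0.54 FPKM in vehicle libraries (SD, n = 4 each).

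Psmf1, which encodes the inhibitor PI31, was the steadiest member under Mic-628, with 21.6, 21.6, 21.9 and 21.6 FPKM in Mic-628 replicates 1 to 4, against 21.3, 21.7, 22.3 and 22.9 FPKM in vehicle replicates 1 to 4. Its fold change was 0.981 with an interval of 0.922 to 1.04 (edgeR adjusted p = 0.818), and its log2 value was -0.0070 without vehicle replicate 4 and -0.04 without vehicle replicate 1, against -0.03 with all libraries. Psme2b, a gene of chromosome 11 named for the same subunit as Psme2, was barely expressed and had the largest and least certain value. It had 0.945, 0.883, 0.774 and 0.653 FPKM in Mic-628 replicates 1 to 4, against 0.987, 0.460, 0.583 and 0.415 FPKM in vehicle replicates 1 to 4. The fold change was 1.32 with an interval of 0.878 to 1.99 (log2 fold change 0.40, SE 0.287, edgeR adjusted p = 0.513), and whether it shares reads with the far more abundant Psme2 was not tested. The log2 value of Psme2b was 0.72 without vehicle replicate 1, 0.26 without vehicle replicate 4 and 0.18 with limma on log2(FPKM + 1). Rows of 5 proteasome pseudogenes reached at most 0.368 FPKM.

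**Figure D5:**
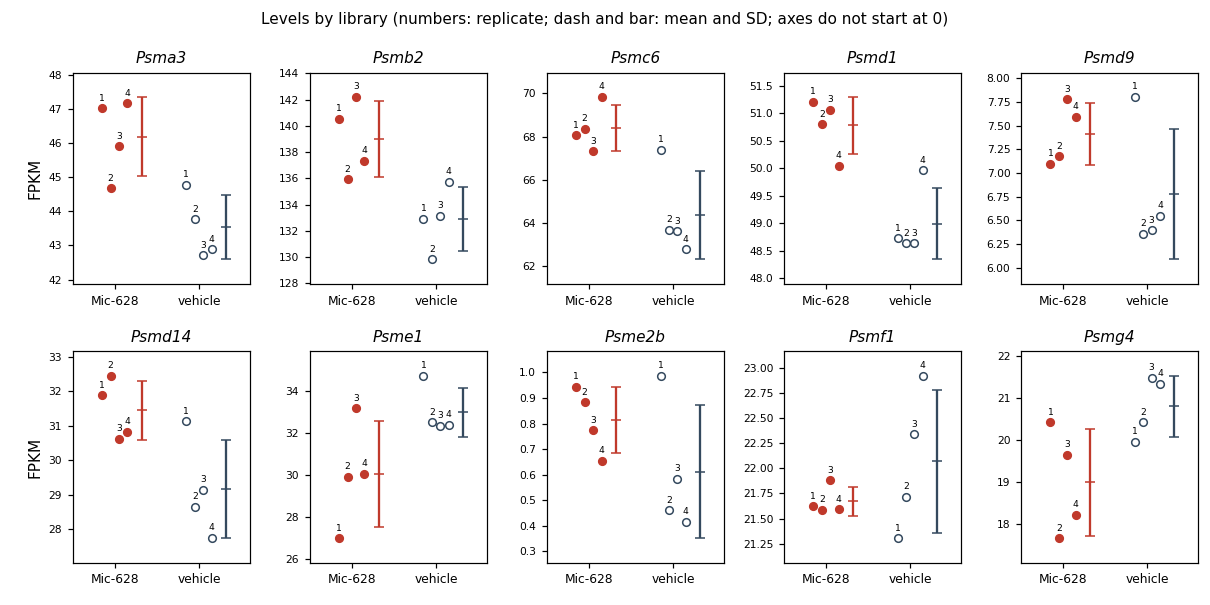
FPKM in each library, Mic-628 left of vehicle, for the tested gene with the smallest p in each role and for the largest and smallest log2 fold change, with the mean and SD of 4 libraries. Vehicle replicate 1 lies at or near the Mic-628 level in Psmc6, Psmd14 and Psmd9, and the vertical axes do not start at 0.

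Genes that work with the proteasome but fall outside its naming rule showed a similar picture. Of 19 associated and regulatory factors 0 were called higher, against 2.13% of all tested rows, and 1 was called lower, against 2.25%, so the list's share of calls was near that of all rows. Of 3 further subunit or assembly genes (Adrm1, Sem1 and Pomp) 0 were called. The 1 called gene was Midn, whose product midnolin carries nuclear proteins to the proteasome without ubiquitin. It had 31.2, 30.7, 29.8 and 29.0 FPKM in Mic-628 replicates 1 to 4, against 32.2, 32.3, 33.4 and 33.0 FPKM in vehicle replicates 1 to 4. All Mic-628 libraries lay below all vehicle libraries, giving -0.12 on the log2 scale (SE 0.033, edgeR adjusted p = 0.0430). With the batch number as a block it was not called (edgeR adjusted p = 0.0907), and DESeq2 did not call it (adjusted p = 0.0583). The call was also lost without any 1 of replicates 2, 3 and 4 of either group, with log2 values of -0.09 to -0.12. Rad23b, which encodes a shuttle for ubiquitylated proteins, was 1.07-fold at 136.9 ± 2.41 FPKM in Mic-628 libraries and 127.7 ± 2.83 FPKM in vehicle libraries (SD, n = 4 each; edgeR adjusted p = 0.0597). It was called higher by DESeq2 (adjusted p = 0.0143), by edgeR scaled on library size only (0.0401), without vehicle replicate 1 (0.0198) and without replicate 1 of both groups (0.0262). It was not called in either fit with the replicate block (edgeR adjusted p = 0.0920, DESeq2 0.188). The proteasome gene regulator Nfe2l1 had a log2 fold change of -0.02 (SE 0.033) and Nfe2l2, its relative, 0.0076 (SE 0.033), with edgeR adjusted p of 0.808 and 0.945. Adrm1, a ubiquitin receptor of the base, averaged 48.7 ± 1.596 FPKM in Mic-628 libraries and 47.4 ± 1.30 FPKM in vehicle libraries (SD, n = 4 each; edgeR adjusted p = 0.664).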

How the data were processed

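Total RNA was extracted with Trizol and made into strand-marking mRNA libraries for paired-end reading, per the labels' protocols. The submitters' processing notes name bcl2fastq, STAR 2.7.10a, HOMER 4.11 and build GRCm39 (mm39), without roles; whether counting used strand is not given in the sources used here. The authors deposited exon read counts in steps of 0.5, treated as estimated counts, and FPKM values. FPKM recomputed from counts, exon length and header totals differed from the deposited FPKM by at most 5e-04. Coordinates are 1-based, as deposited.

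Counts were rounded and fitted over the whole table in R 4.3.3 with edgeR 4.0.16 (filterByExpr with minimum count 10, TMM, quasi-likelihood F test with no block, Benjamini-Hochberg adjustment over 17128 rows). A call is an adjusted p under 0.05. The SE is the log2 fold change over the square root of F, and 95% intervals use the matching t quantile. Batch numbers, which equal the replicate numbers, pair 1 library of each group, and a fit with that pairing as a block was tried. Deviations of paired libraries correlated between -0.0949 and 0.0744 over 10292 rows. Replicates differed by more than counting noise (chi-square per row 1.74 to 5.80). Other alternatives used DESeq2 1.42.0, limma 3.58.1 on log2(FPKM + 1) or log2(FPKM + 0.1), other scalings and filters, and fewer libraries.

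The members, roles and companion lists were chosen with earlier results of these data known. Genes given by library are the tested member with the smallest p in each role and the largest and smallest log2 fold change; the most and least abundant members of each role are given by level, and companion lists by their called genes or smallest p. Psmb3, Psmc4, Psmd8, Psme2, Rad23b, Zfand2a, Nfe2l1 and Nfe2l2 were chosen after their values were seen. Paaf1 was not analysed here. Plots used matplotlib 3.10.9.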

Additional observations from a re-analysis of the deposited data

Results flagged for a closer look

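Of 88 groups of 4 libraries (44 tested members in 2 groups), 4 held a library whose gap to its nearest neighbour took most of the range, by Dixon's criterion; chance flags about 1 in 20 groups. Psmd9 had 7.80 FPKM in vehicle replicate 1, and the other vehicle libraries had 6.36 to 6.54 FPKM. Psme1 had 34.7 FPKM in vehicle replicate 1, with the others at 32.4 to 32.5 FPKM. Psmd1 had 49.96 FPKM in vehicle replicate 4, with the others at 48.6 to 48.7 FPKM. Psmf1 had 21.88 FPKM in Mic-628 replicate 3, with the others at 21.6 FPKM.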

How the results depend on the processing

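The count of proteasome members called higher was 0 under DESeq2, both fits with the replicate block, other scalings and filters, limma on FPKM and a threshold of 0.01. With libraries left out it ranged from 0 to 3, with 3 without vehicle replicate 1 and 2 without replicate 1 of both groups; the count lower was 0 throughout. The median log2 fold change of the members ranged from 0.024 to 0.055 with libraries left out and from 0.031 to 0.038 otherwise, including 0.032 with the replicate block; the median of all rows stayed between -0.0051 and 0.0022. The 20S and 19S sums kept their sign (log2 ratios 0.010 to 0.049 and 0.022 to 0.041). Associated factors had 1 gene, Rad23b, called higher under DESeq2 and under library size only, and 0 to 2 with libraries left out (Zfand2a without Mic-628 replicate 1, Rad23b without vehicle replicate 1, both without replicate 1 of both groups). They had 0 called lower under DESeq2 with and without the replicate block, edgeR with the replicate block, DESeq2 size factors, library size only, no low-count filter, all 3 limma fits and a threshold of 0.01, and 0 to 1 with libraries left out. With the replicate block Midn had an adjusted p of 0.0907 (edgeR) and 0.457 (DESeq2), and the block changed no call among the proteasome members. The cause of these changes was not tested. Each member has 1 row, so summing the rows of a symbol left its counts as they were. Psma8, Psmb11 and Psmb8 had too few counts to pass the low-count filter of the main fit. With no low-count filter and with limma on all rows, Psmb11 and Psmb8 were fitted and were not called. Psma8, with a count of 0 in every library, was not fitted in any setting.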
